A study of Homo sapiens with 21 samples.

Results

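Pol II S5P stands for RNA polymerase II with serine 5 of its tail phosphorylated, its initiating form. Libraries with this name in their titles were compared with the histone mark H3K4me3 at the ends of protein-coding genes in CAMA1 cells. A gene was taken as marked when a reproducible H3K4me3 region lay within 1 kb of one of its ends, where reproducible means that peaks of both replicate lists overlapped and were joined into 1 region. By this rule 13303 of the 19974 protein-coding genes on chromosomes 1 to 22 and X were marked. Of these, 7729 also had reproducible Pol II S5P at the marked end (58.1%, 95% Wilson interval 57.3% to 58.9%), and 5574 did not. The 2 sets are called genes with and genes without Pol II S5P below.

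CAMA1 is a breast cancer cell line that the labels give as ER+ and FGFR1-amplified. The cells were untransfected, at a passage of less than 10, and were kept in medium deprived of estradiol for 48 h before chromatin immunoprecipitation and sequencing (ChIP-seq). H3K4me3 and Pol II S5P each had 2 libraries from this 1 line, and no label says whether they came from separate cultures. The Pol II S5P libraries were made with antibody clone 4H8, which the labels describe as directed to the carboxy-terminal domain of Rpb1 and without a phosphorylation state. The S5P name comes from the sample titles, and whether other forms of Pol II were also captured was not tested. Lists of H3K27ac, FOXA1 and FGFR1 from untransfected cells, 2 each, were used as further readouts at the same gene ends.

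H3K4me3 is laid down by the SETD1 and KMT2 methyltransferase complexes, mostly at CpG-rich promoters, and it can be present at genes that are little transcribed. Pol II is phosphorylated on serine 5 of the repeats in its largest subunit by CDK7, a kinase of the general factor TFIIH, when it starts transcription. It often pauses shortly after the start, held by the factors NELF and DSIF, so its signal is usually highest near the start of a gene.

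The Pol II S5P lists held 18713 and 12267 peaks (replicates 1 and 2), and the H3K4me3 lists 41399 and 38624. Of the replicate 1 Pol II S5P peaks, 54.5% overlapped a replicate 2 peak, against 88.0% in the other direction. No total read count is given in the lists. The height of a peak was recovered from its fold enrichment and p-value as a number of overlapping fragments. The only guide to depth is the background on that scale, 3.14 and 3.09 fragments for Pol II S5P and 2.66 and 2.53 for H3K4me3. The lowest Pol II S5P peaks held 13 and 14 fragments and the lowest H3K4me3 peaks 9 in each list, while the highest peak of all 4 lists stood at 400. A gene without Pol II S5P is thus one at which no reproducible peak was listed at this depth. Of 8 luminal marker genes 7 were marked and 6 had Pol II S5P: FOXA1, KRT8, KRT18, KRT19, CDH1 and EPCAM. Over all genes 66.6% were marked, and 58.1% of marked genes had Pol II S5P. ESR1 was not marked at either outer gene end, although 4 of its 6 annotated starts were, none of them with Pol II S5P. GATA3 was marked without Pol II S5P at its outer end, and 3 of its 6 annotated starts had it. Of 6 basal or mesenchymal markers 2 were marked, of 4 haematopoietic markers 2, and none of these 10 genes had Pol II S5P.

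Upstream sequences of 8 genes are shown here because they cover the extremes of the comparison. They are the 250 bases before the annotated start closest to the marked end and within 1 kb of it. They come from RefSeq promoters on GRCh38.p14 and are read 5′ to 3′ on the strand of the gene. For RBM24 that start lies inside the gene. Capitals mark matches, on either strand, to the motifs searched: the TATA box TATAAA, the CCAAT box, the GC box GGGCGG, the ETS family motif CCGGAAG, the NRF1 motif GCATGCGC, the E-box CACGTG, the cAMP response element TGACGTCA and a longer YY1 motif. PGK1, TUBB4B and BRD2 were among the 10 genes with the strongest Pol II S5P. TAF13 and MRPS18B had the strongest Pol II S5P among the other named genes whose stretch holds the ETS and the NRF1 motif. The widest Pol II S5P region within 1 kb of the MRPS18B end, chr6:30613364-30617470, ended before the stretch shown. KCND3, RBM24 and ZNF629 were among the 10 with the strongest H3K4me3 and, within 1 kb, no Pol II S5P peak in either list. The stretches are chrX:78103998-78104247 (+) for PGK1, chr9:137241037-137241286 (+) for TUBB4B, chr6:32968344-32968593 (+) for BRD2, chr1:109076004-109076253 (-) for TAF13 and chr6:30617590-30617839 (+) for MRPS18B. For the genes without Pol II S5P they are chr1:111989669-111989918 (-) for KCND3, chr6:17281814-17282063 (+) for RBM24 and chr16:30787206-30787455 (-) for ZNF629.
PGK1: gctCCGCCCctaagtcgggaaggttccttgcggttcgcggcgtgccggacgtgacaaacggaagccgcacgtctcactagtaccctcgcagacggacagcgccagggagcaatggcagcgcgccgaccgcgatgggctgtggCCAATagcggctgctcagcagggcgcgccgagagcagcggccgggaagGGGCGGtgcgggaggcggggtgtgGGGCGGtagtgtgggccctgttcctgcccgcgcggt
TUBB4B: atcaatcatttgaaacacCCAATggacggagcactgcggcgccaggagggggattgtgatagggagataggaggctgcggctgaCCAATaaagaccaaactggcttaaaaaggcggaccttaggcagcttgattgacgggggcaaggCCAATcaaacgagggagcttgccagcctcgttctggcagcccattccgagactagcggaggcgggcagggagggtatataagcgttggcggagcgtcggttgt
BRD2: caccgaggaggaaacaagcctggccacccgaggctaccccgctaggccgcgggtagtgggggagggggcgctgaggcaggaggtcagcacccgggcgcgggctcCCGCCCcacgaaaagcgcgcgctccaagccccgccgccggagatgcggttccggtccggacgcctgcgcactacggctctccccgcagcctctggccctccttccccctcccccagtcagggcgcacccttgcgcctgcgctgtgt
TAF13: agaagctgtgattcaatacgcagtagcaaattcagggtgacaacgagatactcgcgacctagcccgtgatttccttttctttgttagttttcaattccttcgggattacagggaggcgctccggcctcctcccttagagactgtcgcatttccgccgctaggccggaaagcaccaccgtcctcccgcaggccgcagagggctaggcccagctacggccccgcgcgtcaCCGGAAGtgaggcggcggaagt
MRPS18B: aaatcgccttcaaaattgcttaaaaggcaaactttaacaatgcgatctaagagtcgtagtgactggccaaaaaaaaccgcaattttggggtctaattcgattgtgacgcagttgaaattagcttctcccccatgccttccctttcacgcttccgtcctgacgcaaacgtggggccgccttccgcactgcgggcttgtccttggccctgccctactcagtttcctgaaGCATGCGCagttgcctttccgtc
KCND3: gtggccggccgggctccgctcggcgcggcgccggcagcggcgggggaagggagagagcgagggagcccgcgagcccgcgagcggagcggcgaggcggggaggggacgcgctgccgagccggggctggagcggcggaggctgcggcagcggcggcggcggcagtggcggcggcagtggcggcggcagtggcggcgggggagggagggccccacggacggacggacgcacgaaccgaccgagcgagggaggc
RBM24: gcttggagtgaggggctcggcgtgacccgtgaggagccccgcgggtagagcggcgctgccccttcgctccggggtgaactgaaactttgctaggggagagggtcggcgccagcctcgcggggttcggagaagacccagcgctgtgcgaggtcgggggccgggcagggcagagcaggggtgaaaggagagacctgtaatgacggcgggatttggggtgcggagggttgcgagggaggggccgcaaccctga
ZNF629: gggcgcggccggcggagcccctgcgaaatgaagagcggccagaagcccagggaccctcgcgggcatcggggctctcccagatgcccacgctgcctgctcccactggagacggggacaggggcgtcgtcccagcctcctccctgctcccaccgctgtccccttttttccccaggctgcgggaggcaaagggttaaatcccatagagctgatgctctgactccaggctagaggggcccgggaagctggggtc
None of the 8 motifs was found in the 3 stretches from genes without Pol II S5P, and that says only that these letters are not in these windows. KCND3 had the highest GC content of the 8, 82.8% with 44 CpG dinucleotides, so CpG density did not separate these examples.

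Genes with Pol II S5P carried wider H3K4me3. The region at the marked end had a median width of 2842 bp (quartiles 2324 and 3537) in genes with Pol II S5P and 1846.5 bp (quartiles 1253 and 2486) in genes without, a ratio of 1.54. When each Pol II S5P list was paired with each H3K4me3 list on its own, the 4 ratios lay between 1.56 and 1.79. The quartile ranges of the 2 sets overlapped, so width alone did not separate them.

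They also carried stronger H3K4me3. The fold enrichment over background at the marked end had a median of 97.8 in replicate 1 and 99.0 in replicate 2 in genes with Pol II S5P, against 74.0 and 73.2 in genes without. Strength is given below as the percentile of a peak's fold enrichment within its own list, averaged over both lists. The median percentile was 90.05 (quartiles 83.7 and 95.4) with Pol II S5P and 74.1 (quartiles 66.7 and 81.1) without, a difference of 16.0 points, with 15.4 to 18.2 over the 4 pairings of single lists. Median peak heights were 357 and 348 fragments with Pol II S5P and 270 and 257 without, so the stronger set lay close to the limit of 400.

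The share of genes with Pol II S5P went from 2.33% in the weakest decile of H3K4me3 strength to 95.9% in the strongest. Over deciles of width it went from 2.55% to 83.6% in the ninth decile and 82.5% in the widest. Replicate 1 gave higher shares than replicate 2 in every decile of both quantities, 98.0% against 95.04% in the strongest decile and 5.94% against 2.70% in the weakest.

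**Figure D1:**
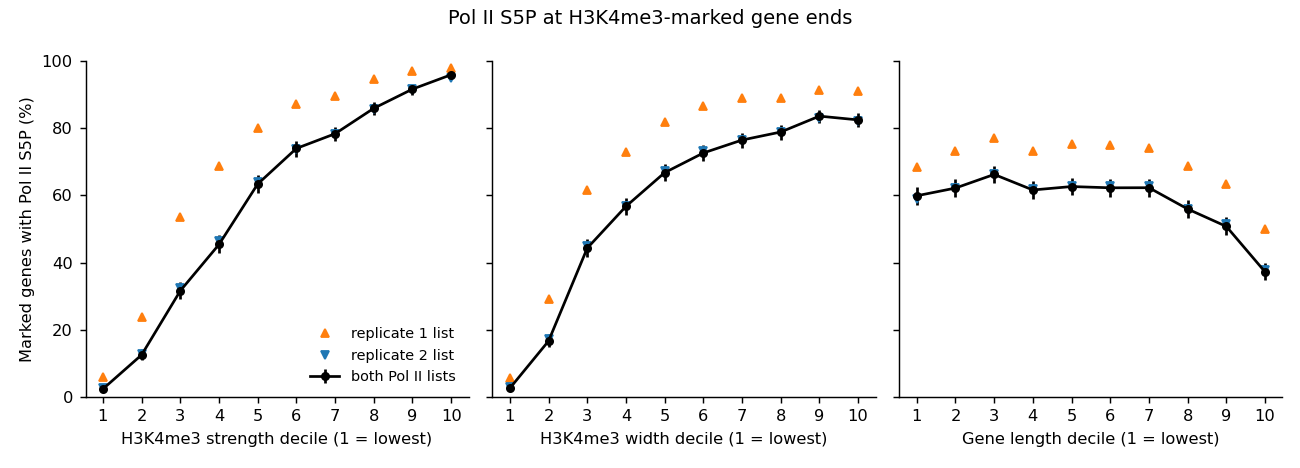
Share of H3K4me3-marked genes with Pol II S5P (%, y axis) by decile of H3K4me3 strength, H3K4me3 width and gene length (x axes, 1 the lowest). Black points are calls in both Pol II S5P lists with 95% Wilson intervals and triangles the single lists; the share goes from 2.33% to 95.9% over strength and is lowest, 37.2%, in the decile of the longest genes.

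Width and strength go together among marked genes (Spearman's rho 0.579 across 13303 genes, which are not independent replicates), so they were also looked at jointly. Within the weakest quintile of strength the share with Pol II S5P was 0.750% in the narrowest and 19.4% in the widest group of genes. Median strength also went from the 43.1st to the 70.0th percentile between these groups, so strength was not held within that quintile. Within the strongest quintile it was 87.0% in the narrowest group and 95.5% in the widest. The ratio of median widths, with over without, was 1.74 in the weakest quintile and between 1.16 and 1.19 in the other 4. In 1 logistic fit over all marked genes the odds ratio of Pol II S5P per standard deviation was 7.72 (95% interval 7.06 to 8.43) for strength and 2.29 (2.12 to 2.47) for width, where 1 standard deviation of width is a 1.69-fold change. Fitted alone, the odds ratios were 10.4 and 4.84. The joint odds ratio for strength was 12.1 when genes with Pol II S5P in exactly 1 list were left out and 4.91 with a reciprocal overlap of 50%. These intervals treat genes as independent, although 3874 marked genes share an H3K4me3 region with another gene.

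**Figure D2:**
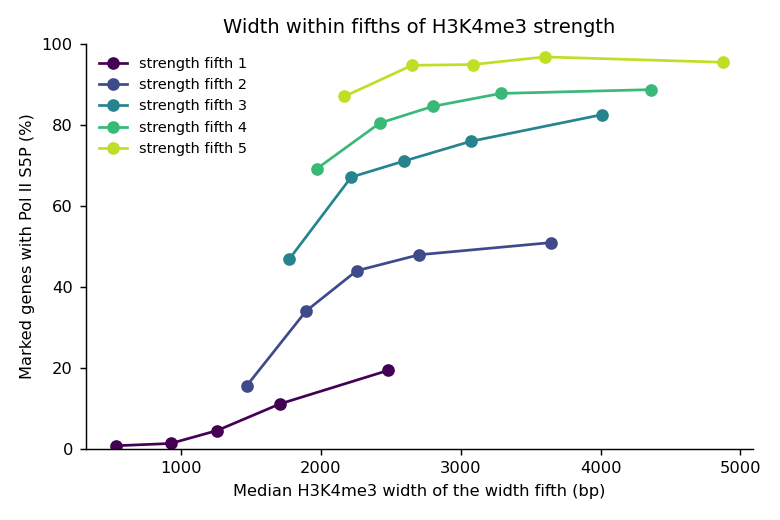
Share of marked genes with Pol II S5P (%, y axis) against the median H3K4me3 width of each width group (bp, x axis), drawn separately for quintiles of H3K4me3 strength (1 the weakest). The share goes from 0.750% to 19.4% with width in the weakest quintile and from 87.0% to 95.5% in the strongest. In the weakest quintile median strength also rises with width, from the 43.1st to the 70.0th percentile.

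Genes with Pol II S5P were shorter. Median gene length, from the first to the last annotated base, was 26306 bp (quartiles 10844 and 59378) with Pol II S5P and 36024 bp without, a ratio of 0.730 and of 0.706 to 0.743 over the 4 pairings. Without regard to H3K4me3, the drop lay among the long genes. The share with Pol II S5P was 59.7% for genes under 5 kb, 63.5% for 5 to 20 kb and 60.6% for 20 to 100 kb. It was 47.2% for 100 to 300 kb and 29.2% for genes over 300 kb. All marked genes of like H3K4me3 strength and width had shares of 53.6%, 59.3%, 60.2%, 56.0% and 46.5% in the same order. Against these the observed shares differed by 6.10, 4.20, 0.321, -8.86 and -17.3 points, so the shortest genes lay above them. The ratio of median lengths was under 1 in each quintile of strength, between 0.480 and 0.741. In the joint logistic fit the odds ratio for length was 0.644 (0.613 to 0.677) per standard deviation, a 3.95-fold change in length.

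Very long genes with Pol II S5P were MACROD2, a mono-ADP-ribosylhydrolase, of 2057682 bp with a Pol II S5P fold enrichment of 9.78 and 8.79 in replicates 1 and 2, CCSER1 (8.46 and 7.67) and ANKS1B (4.71 and 4.77). Those without a peak in either list were RBFOX1, a neuronal splicing regulator, PTPRD, a receptor tyrosine phosphatase, and DLG2, a synaptic scaffold. H3K4me3 at RBFOX1 was a 376 bp region at the 23.5th percentile, whereas PTPRD and DLG2 stood at 68.9 and 70.8.

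The strongest Pol II S5P was at PGK1, which encodes the glycolytic enzyme phosphoglycerate kinase, at chrX:78103693-78104461. Its fold enrichment was 88.4 in replicate 1 and 89.6 in replicate 2, which in both lists is the limit of 400 fragments, so any greater height would not show. H3K4me3 there was at 80.3 and 81.7, only the 77.5th percentile. The next by mean percentile over both lists was CCND1 (cyclin D1) with 43.0 and 33.6, followed by TUBB4B, a beta-tubulin, with 38.8 and 36.0. BRD2, a bromodomain reader of acetylated histones, had 42.1 and 33.3, and KRT19, a luminal keratin, 39.1 and 33.6. RPS3, a protein of the small ribosomal subunit, had 41.7 and 29.5. WDR74, LIPT2, LOC124900276 and the linker histone gene H1-4 completed the 10. PGK1 thus stood above all other genes in both lists, while the other 9 lay between 34.2 and 43.0 in replicate 1 and between 28.9 and 36.0 in replicate 2. H2BC5 shares the region of H1-4.

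Pol II S5P regions at marked ends were narrow, with a median of 601 bp and 21.4% of the width of the H3K4me3 region, and 98.0% lay wholly inside it. The region at CCND1, chr11:69637987-69657021, was the widest among the 10 strongest genes, and its 19035 bp covered the whole gene. KRT19, with 7255 bp, and H1-4, with 3149 bp, were also covered whole, and BRD2 had 5951 bp and RPS3 5463 bp. At CCND1, KRT19, RPS3, TUBB4B and WDR74 the region reached outside H3K4me3. In all 145 genes had a Pol II S5P region over 2000 bp, with a median gene length of 5071 bp, and 13 genes in 10 regions had one over 5000 bp.

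For 10141 marked genes the marked end was the annotated 5′ end, which allowed summits to be placed. Pol II S5P summits had a median of 39 bp and 38 bp into the gene (replicates 1 and 2), and 75.5% and 75.4% lay within 250 bp of the start. H3K4me3 summits lay further in, at 225 and 224 bp in genes with Pol II S5P and 199 bp in both lists in genes without. H3K4me3 regions reached 1022.5 bp upstream and 1689 bp into the gene with Pol II S5P, against 642 bp and 1220 bp without, so the mark was wider on both sides.

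**Figure D3:**
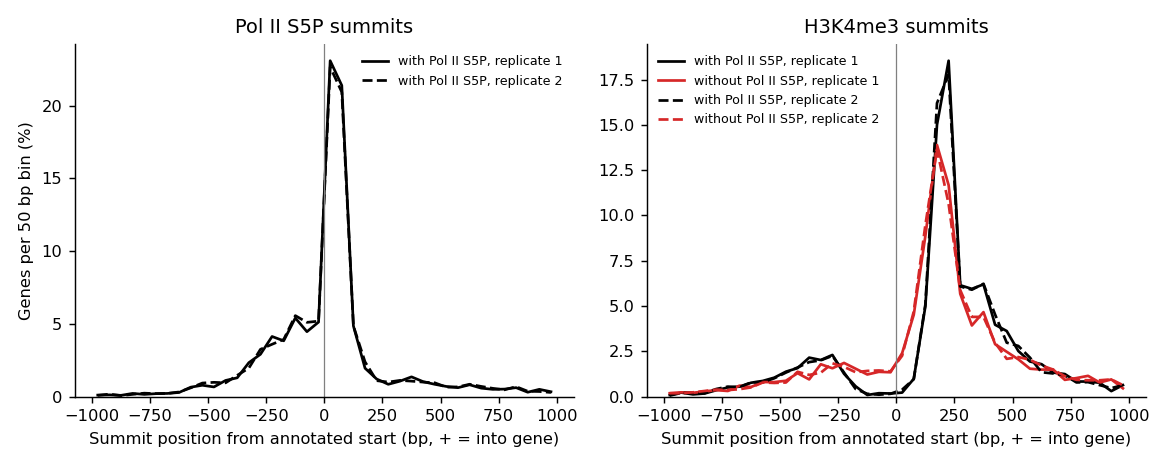
Position of peak summits from the annotated start (bp, x axis, positive into the gene) as the share of genes per 50 bp bin (%, y axis), for Pol II S5P (left, genes with Pol II S5P) and H3K4me3 (right, genes with in black and without in red). Solid and dashed lines are replicates 1 and 2; Pol II S5P is highest just after the start and H3K4me3 at about 225 bp.

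Among genes with Pol II S5P, the level of Pol II S5P went with H3K4me3. From the weakest to the strongest quintile of Pol II S5P, median H3K4me3 width went from 2534 to 3261.5 bp, H3K4me3 strength from the 84.1st to the 95.4th percentile, and gene length from 30774.5 to 17815 bp. Spearman's rho between Pol II S5P and H3K4me3 percentiles was 0.444 across 7670 genes of the same 4 libraries. Some genes lay far from this trend. POLR2A, the largest subunit of Pol II, had Pol II S5P at 23.9 and 23.5 but H3K4me3 at only the 70.9th percentile, and TAF12, a TFIID subunit, had 37.3 and 27.8 with H3K4me3 at the 65.6th.

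The 5574 genes without Pol II S5P were not alike. In 3944 of them (70.8%) neither list had a peak, 1550 had a peak in replicate 1 only, 64 in replicate 2 only, and 16 in both lists without overlap. The peaks in replicate 1 only were low, with a median of 23 fragments against 42 in genes with Pol II S5P. Genes with neither peak had a median H3K4me3 width of 1564 bp and strength percentile of 70.8, while the others without Pol II S5P, at 2389 bp and 80.3, lay between these and the genes with Pol II S5P.

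Named here are 10 genes with the strongest H3K4me3 and no Pol II S5P peak in either list within 1 kb of the marked end. Pol II S5P was not sought over the rest of the H3K4me3 region. CSF1, the macrophage colony-stimulating factor, stood highest, with H3K4me3 fold enrichments of 108 and 112 at chr1:109909900-109911976, and it had FGFR1 but not FOXA1. SEPTIN8, a cytoskeletal GTPase, had 106 and 111 over 5865 bp, and KCND3, a potassium channel, 107 and 107. RBM24, an RNA-binding protein, and ZNF629, a zinc finger protein, stood at the 97.9th and 97.7th percentiles. The other 5 were TSGA10IP, STPG3, SLURP1, ADHFE1 and RNF151. At these 5 the H3K4me3 region lay wholly outside the gene, and whether it belongs to another gene was not tested. The marked end of STPG3 is not its annotated 5′ end, and no strand was available for CSF1, TSGA10IP, SLURP1, ADHFE1 or RNF151, so which end is the start was not known there.

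The widest H3K4me3 regions in genes with Pol II S5P were at transcription factors: TRPS1 (17483 bp), IRX5 (17069 bp), TBX3 (16604 bp) and TFAP2A (16568 bp), with FAM217B (15398 bp). Pol II S5P at TRPS1 was modest, 7.14 and 4.10. Without Pol II S5P, the widest region, of 11513 bp, was shared by CDKN1B, a cyclin-dependent kinase inhibitor, and GPR19. It covered the whole of CDKN1B, and only replicate 1 had a peak within 1 kb of the marked ends (5.37). ALOXE3 and HES7 shared a region of 9831 bp and had no peak in either list within 1 kb of the marked ends. ZMYND8 had 10227 bp with a replicate 1 peak of 5.81.

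Gene classes were then read against 58.1% over all marked genes, and against the share among all marked genes of like H3K4me3 strength and width, called the matched share. The lists are described by counts only, since they were chosen with results of these data known. Cytosolic ribosomal protein genes had the highest share of the 27 lists. Of 78 marked members 77 had Pol II S5P (98.7%, matched share 80.1%), and the exception was RPL29, with a replicate 1 peak of 6.70 only. Aminoacyl-tRNA synthetases, which charge tRNAs, had 31 of 34 (matched 76.2%), translation factors 44 of 51 (78.2%) and mitochondrial ribosomal proteins 63 of 75 (73.8%). EEF2, the translocation factor of elongation, had 22.3 and 15.5, and SARS1, the seryl-tRNA synthetase, 23.2 and 16.6.

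The replication-dependent histones, which are made in S phase from very short genes, had 45 of 53 (84.9%), 20.6 points above their matched share of 64.3%. The largest Pol II S5P among them was at H1-4, which shares its region with H2BC5, with 34.2 and 30.0. Several of these genes share regions, so they are not separate observations. Chaperone and unfolded protein response genes had 25 of 27 (92.6%, matched 86.2%), among them HSPA1B with 39.5 and 27.8 and HSP90AB1 with 30.0 and 28.4. The 2 exceptions were ATF6 and DNAJB1, the latter marked at the end that is not its annotated start.

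Splicing factors had 53 of 67 (79.1%, matched 70.9%), with SRSF3 at 33.6 and 24.2, and respiratory chain genes 62 of 76 (81.6%, 73.1%). The transcription machinery itself, Pol II subunits and initiation, pausing and elongation factors, had 50 of 64 (78.1%, 72.5%). HEXIM1, an inhibitor of the elongation kinase P-TEFb, had 26.7 and 21.1, while ELL2, an elongation factor, had a replicate 1 peak only, of 6.70. Mediator, which links activators to Pol II, had 21 of 33 (63.6%, 60.8%).

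Several classes lay below their matched share, each with a Wilson interval that holds the matched share. Such intervals were also found for translation factors, chaperone genes, splicing factors, respiratory chain, transcription machinery and Mediator above. The same was so for immediate early, numbered zinc finger, solute carrier and luminal genes below. The complexes that write and remove H3K4 methylation had 13 of 20 (65.0%, matched 69.5%; replicate 1 alone 95%, beside 69.8% of all marked genes): ASH2L, a core subunit, had 29.8 and 22.6, while KMT2A, a methyltransferase, had a replicate 1 peak of 4.49 only. The proteasome had 30 of 43 (69.8%, 74.3%; replicate 1 alone 88.4%), DNA replication and mitosis genes 26 of 37 (70.3%, 77.0%; replicate 1 alone 94.6%) and FGF and ERK signalling genes 21 of 36 (58.3%, 67.9%). For the first 3 of these classes, replicate 2 alone gave the same shares as both lists. The matched shares correspond to 13.9, 31.9 and 28.5 genes in these 3 and to 24.5 for FGF and ERK signalling. In that pathway the receptor genes FGFR1 (22.99 and 19.7) and FGFR4 (19.7 and 17.3) and the adaptor SHC1 (25.4 and 17.5, at the end that is not its annotated start) had Pol II S5P, as did the phosphatase PTPN11 (15.3 and 15.0). The feedback inhibitors SPRED1 and SPRED2 had replicate 1 peaks only, of 3.83 and 4.49, and the inhibitor SPRY1 and the scaffold KSR1 had no peak in either list. Immediate early genes had 23 of 31 (74.2%, 72.0%), beside 22.3 genes by the matched share. Among them DUSP1 had 30.3 and 20.8 and JUNB 29.4 and 23.1. FOS and FOSB had replicate 1 peaks only, of 4.93 and 6.03. The 404 numbered zinc finger genes had 58.9% and solute carriers 54.8% of 219, against matched shares of 62.0% and 53.0%.

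Luminal and oestrogen response genes had 23 of 37 (62.2%, matched 66.8%). KRT8 and KRT18 share a region, with 23.4 and 17.5. Without reproducible Pol II S5P were GREB1, an oestrogen-induced gene (replicate 1 only, 4.93), PGR, the progesterone receptor (replicate 1 only, 4.27), and IGF1R, MYB, TFF1 and RARA, with no peak in either list. TFF1 and TFF3 had weak H3K4me3, at the 51.2nd and 49.0th percentiles.

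Where developmental and cell type-restricted genes were marked, most had no reproducible Pol II S5P. Marked were 66.7% of HOX genes, 51.0% of other developmental factors, 45.4% of ion channels, 57.1% of collagens and laminins and 52.3% of protocadherins, beside 66.6% of all genes. Of basal or mesenchymal genes 50% were marked, of neuronal or hepatic 37.5%, of haematopoietic 33.3% and of odorant receptor genes 1.79%. HOX genes had 4 of 26 (15.4%, matched 21.1%), and 3 of the 4, HOXC4, HOXC5 and HOXC6, share 1 region. Other developmental factors had 20 of 78 (25.6%, 34.4%), ion channels 15 of 94 (16.0%, 27.4%), collagens and laminins 5 of 32 (15.6%, 23.6%) and protocadherins 1 of 34 (2.94%, 16.2%). For HOX genes, other developmental factors, and collagens and laminins the Wilson interval held the matched share. None of the 10 marked basal or mesenchymal genes had Pol II S5P (upper Wilson limit 27.8%, matched 34.8%), beside 3.5 genes by the matched share. These members were chosen with results of these data known, so no conclusion is drawn from the interval. ZEB1, a repressor of epithelial genes, had H3K4me3 at 93.1 and 92.2 and no Pol II S5P peak. The counts were also 0 for 7 odorant receptor, 6 haematopoietic and 6 neuronal or hepatic genes, whose matched shares were 1.77% to 12.1%. The exact counts depend on the replicate 2 list. Without it, the share was 33.3% for neuronal or hepatic, 16.7% for haematopoietic, 10% for basal or mesenchymal and 11.8% for protocadherin genes. It was still 0 for odorant receptors. All of these stayed below the 69.8% of all marked genes in replicate 1 alone.

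**Figure D4:**
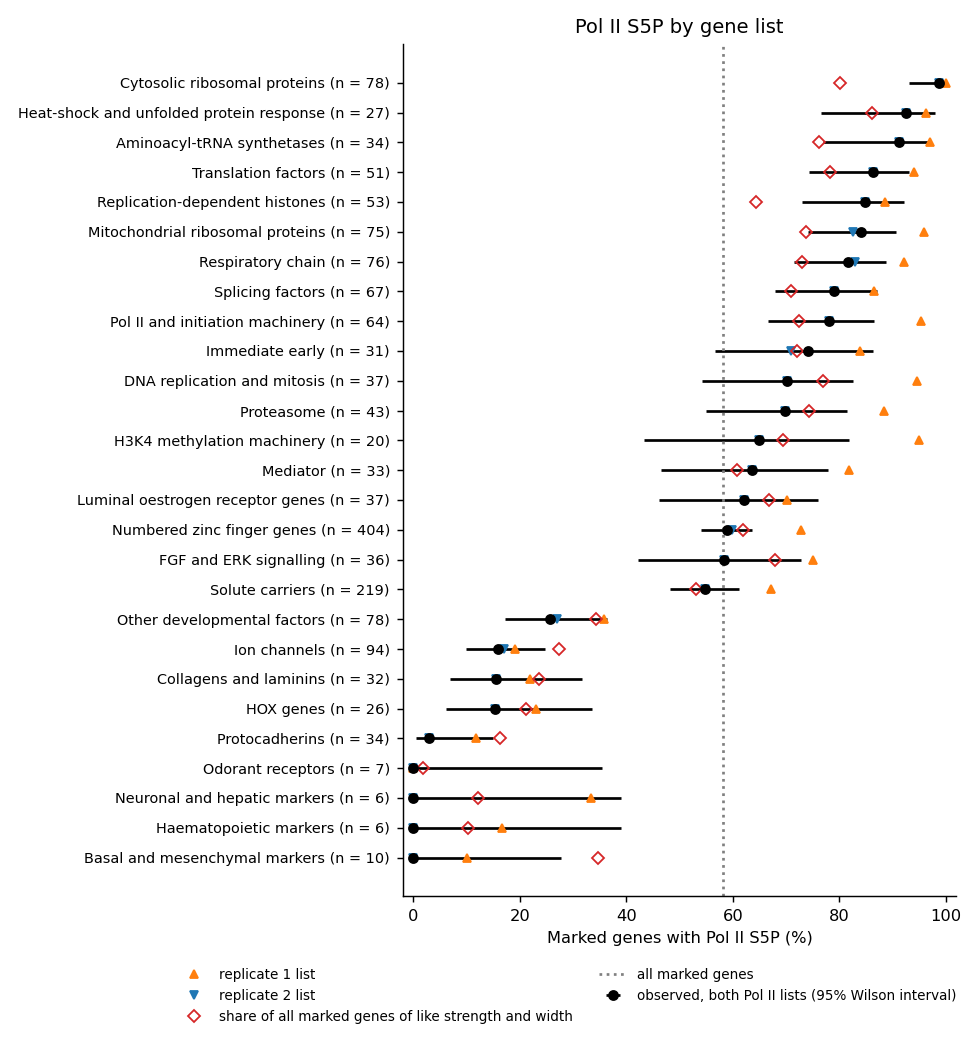
Share of marked genes with Pol II S5P (%, x axis) for 27 gene lists, with the number of marked members in brackets. Black points are calls in both lists with 95% Wilson intervals, triangles single lists, red diamonds the share among all marked genes of like H3K4me3 strength and width, and the dotted line the 58.1% over all marked genes; cytosolic ribosomal proteins and histones lie right of their diamonds.

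At the marked ends, H3K27ac was found in 7728 of 7729 genes with Pol II S5P and in 87.5% of genes without, against 94.8% of all marked genes. The difference lay almost wholly in the weakest quintile of H3K4me3 strength, where 72.6% of genes without Pol II S5P had H3K27ac. In each stronger quintile between 99.2% and 99.8% of them had it. Of 697 marked ends without H3K27ac, 1 had Pol II S5P. FOXA1 was found at 47.5% of ends with and 25.1% without (38.1% of all), an odds ratio of 2.70 (95% Woolf interval 2.51 to 2.91), and within quintiles of H3K4me3 strength the odds ratio was between 1.47 and 2.93. FGFR1 was found at 46.4% with and 5.13% without (29.1% of all), an odds ratio of 16.0 (14.1 to 18.2), and of 4.63 to 14.7 within quintiles. From the weakest to the strongest quintile of Pol II S5P the share with FGFR1 went from 17.5% to 85.9%. The FGFR1 odds ratio was 24.6 without the replicate 2 Pol II S5P list, 32.1 when genes with a peak in exactly 1 list were left out, and 6.22 with a reciprocal overlap of 50%.

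Promoter sequences matched 5872 genes with and 3783 without Pol II S5P that have an annotated start within 1 kb of the marked end. The windows ran from 250 bases before that start to 50 after it. The ratio of observed to expected CpG had a median of 0.876 with and 0.807 without Pol II S5P, and 0.737 over all 22012 promoters. From the lowest to the highest quintile of that ratio the share with Pol II S5P went from 41.8% to 70.2%, while median H3K4me3 strength went from the 78.5th to the 87.6th percentile. The ETS-type motif CCGGAAG, shown at TAF13, was in 24.0% of promoters with and 13.3% without (12.8% of all). The NRF1-type motif GCATGCGC, shown at MRPS18B, was in 7.25% and 3.52% (3.71% of all). Genes holding either motif had Pol II S5P at a higher share in each quintile of H3K4me3 strength, with odds ratios of 1.20 to 2.13 for CCGGAAG and 1.70 to 2.47 for GCATGCGC. The YY1 motif was in 3.58% and 1.80% (1.69% of all), but its odds ratio went from 5.36 in the weakest quintile, over 10 genes with the motif, through 1.71, 1.02 and 1.14 to 0.541 in the strongest. The other motifs had no single direction over the quintiles, or no value in the strongest. TGACGTCA was in 3.95% and 2.56% (2.25% of all), and TATAAA in 4.99% and 5.87% (9.49% of all). The shares were 75.1% and 69.8% for GGGCGG (56.3% of all), 38.0% and 35.0% for the CCAAT box (34.7%) and 11.1% and 9.67% for CACGTG (8.32%). A match is a description of the letters and not a bound site.

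Genes with another protein-coding gene end within 2 kb had Pol II S5P in 69.4% of 4304 cases, against 52.7% of 8999 isolated genes. A peak between such neighbours was counted for both. In genes of at least 5 kb whose other end was unmarked, Pol II S5P was found at that end in 1.81% of genes with and 0.234% of genes without Pol II S5P at the marked end. Of the 6671 unmarked genes, 22 had Pol II S5P at an end (0.330%). These counts cover the outer gene ends only. In the promoter table, 561 genes not marked at an end were marked at an annotated start, and 226 of these (40.3%) had Pol II S5P. Of 4151 genes in that table without Pol II S5P at the marked end, 195 had it at another start.

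The share with Pol II S5P differed between chromosomes, from 71.8% on chromosome 16 to 45.2% on chromosome 11 and 22.9% on X. The X value rests on replicate 2: replicate 1 alone gave 45.2% there and replicate 2 alone 24.1%, beside 69.8% and 58.3% of all marked genes. Median H3K4me3 fold enrichment was also low on X (70.9 and 69.6), as was Pol II S5P where present (6.70 and 5.66), and the matched share there was 26.9%. PGK1, with the highest Pol II S5P of all genes, lies on X. Within chromosomes, genes with Pol II S5P had wider and stronger H3K4me3 on 23 of 23, with width ratios of 1.26 (X) to 2.06 (5) and strength differences of 2.89 (X) to 25.03 (8) points. They were shorter on all but chromosomes 17, 21 and 22. In the amplified 8p11 span 17 of 20 marked genes had Pol II S5P, and in 11q13 7 of 12. Each list was called against 1 background for the whole genome, so copy number and signal per copy cannot be told apart.

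**Figure D5:**
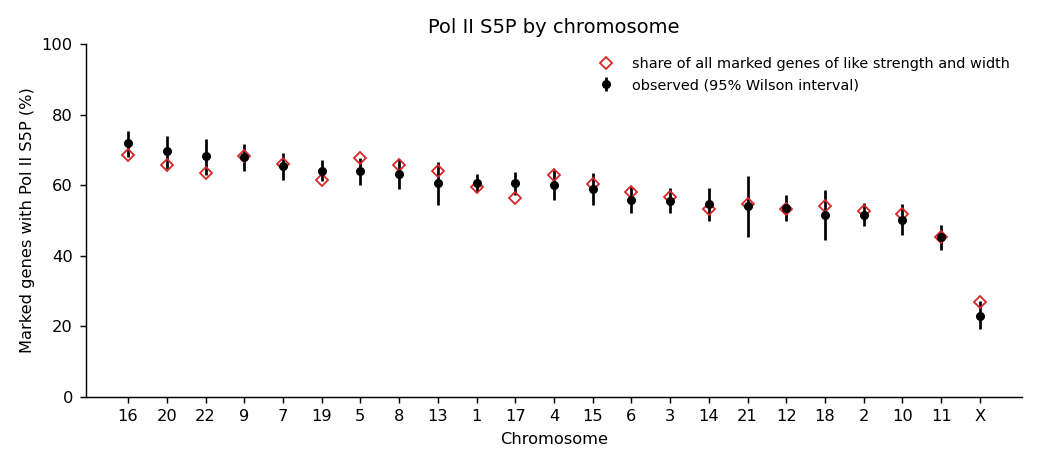
Share of marked genes with Pol II S5P (%, y axis) by chromosome (x axis, ordered by the observed share). Black points carry 95% Wilson intervals and red diamonds give the share among all marked genes of like H3K4me3 strength and width; X is lowest at 22.9% and its diamond stands at 26.9%.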

How the data were processed

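ChIP-seq peak lists of CAMA1 cells were used as deposited, 1 list per library. Per the submitters' processing notes, hg38 was the build, and MACS2, Bowtie2, Picard and SAMtools are named; their versions and settings are not given in the sources used here. In the deposited lists the authors give each peak a linear fold enrichment (ratio of pileup to background) with its −log10 p-value and −log10 q-value. The fold values and p-values of each list went back to a single background for the whole genome, of 2.66 and 2.53 fragments for H3K4me3; for Pol II S5P, pileups were deposited on a scale of 0.711 and 0.721 per fragment, with a background of 2.23. Depth is known only through these values.

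Peaks on chromosomes 1 to 22 and X were merged within a list, and stretches holding a peak of both lists, overlapping by at least 1 bp, were kept. Gene ends came from RefSeq genes (GRCh38.p14), with windows of 1 kb to each side. That table gives neither strand nor exons; the RefSeq promoter table gave a strand for 10869 marked genes (81.7%), of which 93.3% were marked at the annotated 5′ end. Where both ends were marked, the end with Pol II S5P was taken, then the stronger. The matched share is the mean share with Pol II S5P over all marked genes in the same of 10 strength deciles and 3 width groups within each. No test was made of with against without; the 4 pairings of single lists give the spread between libraries. Wilson and Woolf intervals cover counting error only. The logistic fit used statsmodels 0.14.6 and the intervals scipy 1.17.1. The calling of gene ends and the fit were tested on simulated data.

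Named genes were the 10 with the highest Pol II S5P percentile, the 10 with the strongest H3K4me3 and no Pol II S5P peak, the 5 widest, 3 longest and 3 shortest of each set, up to 4 of each gene list with and 4 without Pol II S5P, and POLR2A. Marker genes and PGR, RARA, TFF1 and TFF3 stand outside that rule, the last 4 chosen after their values were seen. The members and lists were chosen with earlier results of these data known. Alternatives were a stricter threshold, reciprocal overlap, other windows, each list left out, pairing by replicate number, lists of equal length and subsets of genes. Input, siNT and siFOXA1 libraries were not used here.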

Additional observations from a re-analysis of the deposited data

How the results depend on the processing

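The width and length ratios, the strength difference and the odds ratios kept their direction under each alternative run for them; 5 gene lists crossed the overall share (below). Not every alternative applied to every result. Values that moved by more than the SD over the 4 pairings of single lists follow; the cause was not tested. Odds ratios are per standard deviation of the joint fit, and those of FOXA1 and FGFR1 compare genes with and without Pol II S5P. With a reciprocal overlap of 50%, the share was 50.8%, the width ratio 1.39, the strength difference 14.0, the length ratio 0.768, and the odds ratios 1.57 for width, 4.91 for strength, 0.754 for length, 2.11 for FOXA1 and 6.22 for FGFR1. Leaving out genes with Pol II S5P in exactly 1 list, the same values were 66.1%, 1.81, 19.2, 0.688, 3.08, 12.1, 0.595, 3.19 and 32.1, and the share of genes without Pol II S5P that had H3K27ac was 82.4%. At a −log10 q of at least 5, the length ratio was 0.705, the strength odds ratio 7.09 and that of FOXA1 2.43. A window of 500 bp gave odds ratios of 1.99 for width, 6.71 for strength and 0.671 for length, and one of 3 kb 2.62 for width, 8.74 for strength and 2.55 for FOXA1. For genes without another gene end within 2 kb, the length ratio was 0.710 and the odds ratios 2.63, 9.07 and 0.617 for width, strength and length. Fitted alone, these were 4.84, 10.4 and 0.773. At the annotated 5′ end only, the length ratio was 0.683. Among genes with H3K27ac, the strength difference was 14.3, and the odds ratios 5.67 for strength and 2.37 for FOXA1; this and the 5′ end and chromosome X alternatives were chosen after seeing the data.

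Leaving out each list in turn gave shares of 57.8% to 70.1%, width ratios of 1.54 to 1.76, strength differences of 15.8 to 17.7 and length ratios of 0.705 to 0.738. The odds ratios lay between 2.23 and 2.69 for width, 6.97 and 8.32 for strength, 0.623 and 0.657 for length, 2.65 and 2.89 for FOXA1 and 15.5 and 24.6 for FGFR1, and the H3K27ac share between 82.5% and 87.4%. Leaving out Pol II S5P replicate 2 gave the far end of most of these, with a share of 70.1% and an FGFR1 odds ratio of 24.6. With lists paired by replicate number (replicate block), the width ratio was 1.67 and the H3K27ac share 84.6%; the share with Pol II S5P was 64.1%. The labels do not say that the numbers pair the libraries.

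Ranking by −log10 q in place of fold enrichment gave the same strength difference, 16.0, and odds ratio, 7.72. With 1 background per list both orders are nearly the same by construction, so this alternative was no separate check. Of 27 gene lists, 17 lay above the overall share, and 14 to 17 did under the alternatives. The lists that changed sides were Mediator, H3K4 methylation machinery, FGF and ERK signalling, luminal genes and numbered zinc finger genes, with shares of 58.3% to 65% in the report. Calls of absence hold only for the depth and threshold of these lists, and peaks at the limit of 400 fragments cannot be ranked further.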
